A study of Mus musculus with 6 samples.

Results

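The windows described here are stretches of DNA in which CpG sites lie far apart and in which methylation was nevertheless low. They were taken from a table of CpG methylation over 100-CpG windows by rule: a window on chromosomes 1 to 19, 8000 to 20000 bp long, with a mean methylation under 50% over the 6 libraries of the table. This rule found 3082 windows, called members below. They were 3.26% of the 94410 windows of that length, 0.858% of all 359192 windows in the table and 7.02% of the 43934 autosomal windows with a mean under 50%, and they spanned 38.4 Mb. The other 91328 windows of that length, with a mean of 50% or more, served as comparison windows. Since the level itself chose the members, levels are given as description, and only the difference between cell cycle phases was tested.

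The study asked whether methylation lost by dilution at DNA replication is restored before cell division, and compared mESCs (mouse embryonic stem cells) sorted in G1 with cells sorted in G2/M. All cells were E14TG2a, a line of strain 129/Ola, grown on gelatin in serum with LIF and with no genetic change or drug named for either group. Both groups were pulsed with EdU, a thymidine analogue that marks replicating cells, fixed in ethanol, and sorted on EdU and on propidium iodide, a dye for DNA content. Each phase had 3 biological replicates, all of 1 cell line, so p-values measure the spread between samples of that line. Methylation was read by EM-seq, an enzymatic conversion method that reports 5-methylcytosine and 5-hydroxymethylcytosine together. The deposited percentages carry no coverage, so the depth behind each value is unknown and no counting interval was computed.

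CpG methylation is copied to the daughter strand after replication by DNMT1 with UHRF1, is set anew by DNMT3A and DNMT3B, and is oxidized by the TET enzymes. In mammalian genomes most CpGs outside CpG islands are methylated, and isolated CpGs in large regions of closed chromatin, the partially methylated domains, lose methylation more readily than others. Low methylation also marks active promoters and enhancers, which are bound by transcription factors and can hold few CpGs.

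The 3 members with the lowest mean and the comparison window with the highest mean are shown first, because they mark the ends of the range. For each, the 200 bases that hold the most CpGs are printed 5′ to 3′ from the + strand of GRCm38 (RefSeq sequence), with each CpG in capitals. The first comes from chr4:133096489-133096688, with 19 CpGs, in an intergenic member whose nearest coding gene is Wasf2. The second comes from chr2:144269324-144269523, with 8 CpGs, in a member over the end of Snx5 and near the start of Mgme1. The third comes from chr12:76222578-76222777, with 16 CpGs, in a member inside Tex21. The fourth comes from chr16:76057288-76057487, with 15 CpGs, in the comparison window nearest to Samsn1.
Wasf2 side, mean methylation of the window 2.86%: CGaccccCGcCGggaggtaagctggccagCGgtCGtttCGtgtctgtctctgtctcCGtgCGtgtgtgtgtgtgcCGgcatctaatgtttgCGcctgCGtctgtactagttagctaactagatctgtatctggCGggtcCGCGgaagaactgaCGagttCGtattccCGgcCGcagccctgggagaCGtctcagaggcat
Mgme1 side, mean methylation of the window 4.64%: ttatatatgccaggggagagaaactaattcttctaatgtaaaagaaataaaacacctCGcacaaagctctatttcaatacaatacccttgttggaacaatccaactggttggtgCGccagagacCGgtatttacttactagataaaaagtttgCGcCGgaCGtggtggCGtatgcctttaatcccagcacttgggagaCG
Tex21, mean methylation of the window 5.40%: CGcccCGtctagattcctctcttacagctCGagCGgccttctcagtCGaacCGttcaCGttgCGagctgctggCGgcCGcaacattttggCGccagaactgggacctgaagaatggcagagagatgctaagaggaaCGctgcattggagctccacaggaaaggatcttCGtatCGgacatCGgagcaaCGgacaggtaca
Samsn1 side, comparison window with a mean of 91.0%: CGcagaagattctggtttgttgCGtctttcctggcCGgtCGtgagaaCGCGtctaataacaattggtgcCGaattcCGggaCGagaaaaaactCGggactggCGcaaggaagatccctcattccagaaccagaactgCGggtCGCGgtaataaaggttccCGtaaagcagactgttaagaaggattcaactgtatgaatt
Clustered CpGs were thus found at both ends of the range: the 200 bases of the most methylated comparison window held more CpGs than those of the Mgme1 window.

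The label of sparse CpGs was checked against the genome sequence. A window counts 100 CpG cytosines, which is about 50 CpG dinucleotides when both strands are counted. The members held a median of 5.20 CpGs per kb, against 5.09 in the comparison windows and 16.8 in the 40507 shorter autosomal windows with a mean under 50%, so by density most of them were sparse. However, 63% of the members held more than 53 CpGs in the sequence, against 25.2% of the comparison windows, and 397 members (12.9%) held 100 or more, against 5.58% of the comparison windows. In these windows more CpGs lay in the sequence than the table counted, and which of them were counted is not known here. The part of the 397 windows in the results was not tested. The median GC content was 38.7% in the members and 38.8% in the comparison windows, and the median share of soft-masked repeats was 36.0% and 34.8%.

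Most members sat close to the threshold. Of the 3082, 1891 (61.4%) had a mean from 45% to 50%, 692 from 40% to 45%, 379 from 30% to 40% and 120 under 30%, of which 8 were under 10%. The histogram of the length class had a single broad peak in the comparison range, with the members as its lower tail and no gap at the threshold. The 2 members nearest to the threshold, with Pdha2 and Aga as nearest coding genes, had means of 49.998% and 49.996%, and the nearest 2 comparison windows, with 1700015G11Rik and Ptprd, had means of 50.001% and 50.002%.

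**Figure D1:**
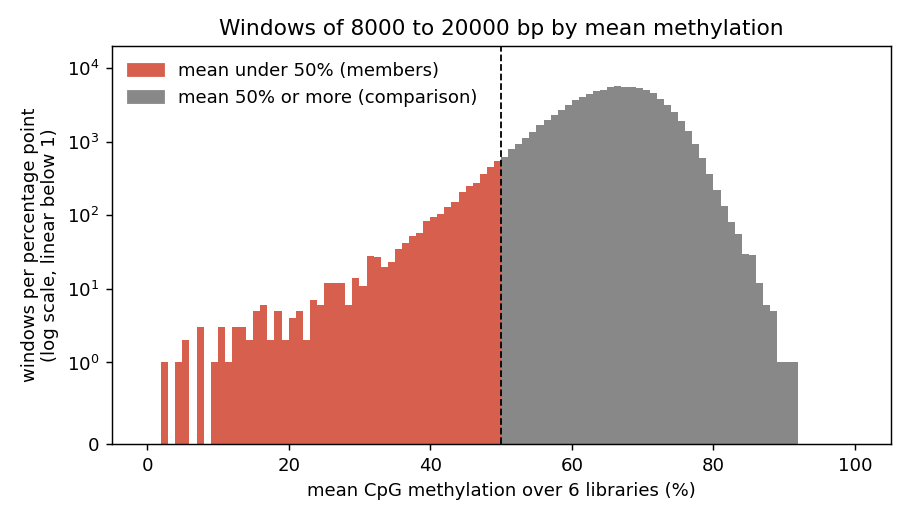
Number of windows of 8000 to 20000 bp (log axis, linear below 1) in each percentage point of mean methylation over 6 libraries. Members (red, mean under 50%) form the lower tail of a distribution that runs on without a gap into the comparison windows (grey).

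The low level was seen again in libraries that did not choose the windows. When windows of this length were chosen on 2 replicate numbers and read in the left-out G1 and G2/M pair, their mean was 44.6%, 42.1% and 52.2% with replicates 1, 2 and 3 left out, against 64.7%, 62.0% and 70.9% in the other windows of that length. With replicate 3 left out, the mean of the chosen windows was thus above 50%. The number chosen was 2950, 2438 and 4783, and both libraries of replicate 3 were higher than the others over the whole table. Of the members, 694 (22.5%) were under 50% in all 6 libraries and 806 in 3 or fewer. By library, 75.6%, 80.8% and 49.5% of the members were under 50% in the G1 replicates, against 84.2%, 89.2% and 57.5% in the G2/M replicates. The SD within a phase was computed with the autosomal median of the library subtracted from each value. Its median was 5.77 percentage points for a single member and 5.10 for a comparison window. Without that subtraction, the 6 libraries of a window spanned a median of 16.9 percentage points in the members and 17.1 in the comparison windows. A single window near the threshold could therefore fall on either side of it.

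Members were found near the starts of coding genes more often than the comparison windows. A start of a protein-coding transcript (GENCODE vM21) lay within 1000 bp of 578 members (18.8%) and of 7.01% of the comparison windows. By level, this share was 53.3% of the members under 30%, 33.8% of those from 30% to 40%, 22.1% of those from 40% to 45% and 12.3% of those from 45% to 50%. Members made up 8.16% of the windows whose centre lay within 5000 bp of a coding start and 9.40% of those from 5000 to 10000 bp. They made up 2.09% from 100000 to 250000 bp, 3.42% from 500000 to 1000000 bp and 3.55% beyond, the last 2 close to the 3.26% of all windows of this length. A coding start lay over 500000 bp from the centre of 22.1% of the members and 20.8% of the comparison windows. No gene was overlapped by 44.8% of the members (53.8% of the comparison windows), and none lay within 50000 bp of 16.4% (20.6%). Some windows had a coding start within 1000 bp and also held a cluster of 10 or more CpGs in 500 bp. Of these, 382 of 2426 (15.7%) were members, against 4.31% with the start alone, 3.83% with the cluster alone and 2.46% with neither. The centre of 55.5% of the members was intergenic (60.9% of the comparison windows) and that of 37.7% intronic (33.8%). These shares are descriptions over windows, with no test.

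**Figure D2:**
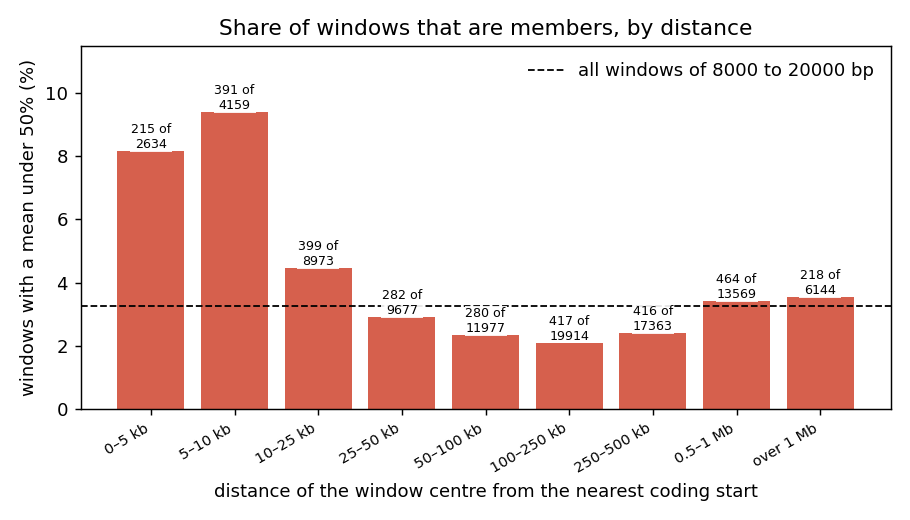
Share of windows of 8000 to 20000 bp that had a mean under 50% (bars, %), by distance of the window centre from the nearest coding start, with members of all windows printed above each bar. The share was highest within 10000 bp, lowest from 100000 to 250000 bp and close to the overall 3.26% (dashed line) beyond 500000 bp.

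Longer windows were members more often. The share ran from 2.48% of windows of 8000 to 10000 bp to 17.1% of those of 18000 to 20000 bp. Among windows with 49 to 53 CpGs in the sequence, in which length does measure sparsity, it ran from 1.85% to 5.98% between the same length classes, with its lowest value of 1.19% from 10000 to 12000 bp.

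Sequence words bound by pluripotency factors and by CTCF were searched in the central 8000 bp of each window, on both strands. The octamer ATGCAAAT, the word of OCT4, was present in 57.4% of the members and 59.6% of the comparison windows, and in 33.3% of the 120 members under 30%. The ESRRB word TCAAGGTCA was present in 13.6%, 12.3% and 25% of the same sets, and the KLF word CCACACCC in 30.6%, 27.6% and 41.7%. The SOX word CATTGTT was found in 85.4%, 86.7% and 80.8%, and a core word of CTCF with open positions in 1.98%, 1.27% and 5.00%. A match is a description of the letters only, and the members under 30% also had a higher median GC content, at 41.5%.

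Of the gene lists, the core pluripotency genes held the highest share of members. Within 5000 bp of 4 of the 37 genes of that list lay 6 windows of this length, and 5 of them were members, against 3.26% of all windows of this length. Of windows centred within 5000 bp of any coding start, 8.16% were members, and of those from 5000 to 10000 bp, 9.40%. The window beside Zfp42, the gene of the pluripotency marker REX1, spanned chr8:43307269-43321377, 289 bp from the nearest annotated gene. It read 14.3%, 5.41% and 6.58% in the G1 replicates and 5.43%, 3.70% and 7.93% in the G2/M replicates. All 6 libraries were thus far under 50%, and the phases overlapped. This window held 398 CpGs, or 28.2 per kb, and was not sparse in the sequence.

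Klf2 encodes a Krüppel-like factor of naive pluripotency. The member beside it, chr8:72307895-72316568, read 35.2%, 30.4% and 23.3% in G1 against 30.6%, 28.3% and 27.2% in G2/M. Fbxo15, an F-box gene used as a reporter of the stem cell state, had a member on chromosome 18. That window overlapped both Fbxo15 and Timm21, whose coding start was the nearest. It read 38.2%, 35.9% and 41.3% in G1 against 36.6%, 35.0% and 34.5% in G2/M. In both windows the phases overlapped. Tfcp2l1, which encodes a transcription factor of naive pluripotency, had a pair of members and 1 comparison window. Its promoter window, chr1:118633656-118643168, read 51.0%, 37.4% and 48.3% in G1 against 37.9%, 46.7% and 44.4% in G2/M. The intergenic member beside it, chr1:118615718-118627281, read 36.5%, 31.3% and 35.9% in G1 against 50.4%, 45.2% and 46.1% in G2/M, without overlap between the phases. Its difference of -12.7 percentage points was picked out after its values were seen and had no adjusted p under 0.05. The comparison window, inside the gene, had a mean of 73.3%.

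Tet2, which encodes a dioxygenase that oxidizes 5-methylcytosine, held the only member among 4 windows at genes of the methylation machinery. This intronic window, chr3:133501121-133510505, read 33.3%, 30.6% and 28.1% in G1 against 23.2%, 28.3% and 35.9% in G2/M, while the window directly before it had a mean of 63.5%. Windows at lineage transcription factors, most of which are silent in undifferentiated cells, had a median of 68.3%, near the 66.2% of the comparison windows. Of these windows, 0 of 14 were members, against 3.26% of all windows of this length. So few windows cannot tell 0 from that share. The 14 windows lay at only 9 of the 54 genes of that list, so the other genes were not covered. At genes named Zfp, mostly zinc-finger genes, many of which lie in clusters, 57 of 547 windows (10.4%) were members, the Zfp42 window among them, with means of 18.9% at Zfp974 and 21.6% at Zfp712. The share was 3.26% of all windows of this length. It was 8.16% within 5000 bp of any coding start and 9.40% from 5000 to 10000 bp. Olfactory and vomeronasal receptor genes, which are normally silent outside sensory neurons, had 74 members of 1984 windows (3.73%). This was close to the share of all windows of this length and below both shares near any coding start. The lowest members at receptor genes were 30.7% at Olfr1338, 39.8% at Olfr215 and 40.9% at Vmn2r57.

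Imprinted genes are expressed from 1 parental copy. Of the 59 windows at such genes, 12 (20.3%) were members, against 3.26% of all windows of this length. Near any coding start the share was 8.16% within 5000 bp and 9.40% from 5000 to 10000 bp. Of these 12 members, 9 lay in the interval from Ube3a and Snrpn to Ndn, Magel2 and Mkrn3 on chromosome 7, and the others at Kcnq1, Grb10 and Commd1. The lowest was beside Mkrn3, chr7:62422214-62431923, with 27.5%, 29.5% and 40% in G1 against 41.0%, 32.5% and 44.2% in G2/M. Inside Snrpn, chr7:60065923-60082140 read 40%, 37.0% and 39.7% in G1 against 36.4%, 35.8% and 36.4% in G2/M. The libraries of this window lay within 4.2 percentage points of each other, and the G1 libraries were all above the G2/M libraries. Its unadjusted limma p was 0.62. All G1 libraries were above all G2/M libraries in 6.16% of the members and 4.12% of all windows. At Kcnq1, a gene of a potassium channel, the member read 52.5%, 31.9% and 33.6% in G1 against 41.2%, 31.5% and 45.3% in G2/M, with wide overlap.

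Members were unevenly spread along the chromosomes. Chromosomes 7 (6.13%) and 8 (5.67%) had the highest shares and chromosomes 10 (1.72%) and 9 (1.98%) the lowest. Of 1657 bins of 1 Mb with at least 20 windows of this length, 740 held no member, whereas 158 bins with 5 or more members held 1377 of the 2726 members in these bins. The windows next to a member had a median of 56.0%, against 66.6% next to a comparison window, and 30.4% of them were under 50%, against 4.24%. The shorter, denser windows within 100 kb also had a lower median beside members, at 59.4% against 68.0%. Around the members under 30%, 59.6% of the adjacent windows were under 50%.

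Members followed each other directly in 353 runs of 2 or more, and 2258 stood alone. The longest run, 7 windows over chr14:109966346-110076087, had a mean of 46.7% and no annotated gene in it, and lay 684903 to 779332 bp from the start of Slitrk6, a gene of a neuronal membrane protein. Its 6 libraries read 43.6%, 48.9% and 45.8% in G1 against 45.5%, 46.2% and 49.9% in G2/M, with overlap. A run of 6 windows at chr7:54061123-54162873, nearest to Luzp2, had a mean of 43.9%. Among the runs of 5, the one with the lowest mean, 40.2%, lay at chr4:92618830-92696959, nearest to Gm12666. The lowest members with no gene within 50000 bp were chr7:60378076-60391686 on the Snrpn side, at 31.1%, and chr1:141679028-141696364 on the Kcnt2 side, at 31.8%.

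Several regions rich in members were chosen after their values were seen. In chr12:114000001-116000000, which held 86 immunoglobulin heavy chain variable segments and 0 protein-coding genes, 41 of 67 windows (61.2%) were members. In chr7:60000001-63000000, around Snrpn and Ndn, 58 of 149 (38.9%) were members. Inside genes, Ptprd, which encodes a receptor tyrosine phosphatase of neurons, had 29 members of 166 windows, and Sgcz, which encodes a sarcoglycan, had 20 of 66. They were followed by Csmd1 with 16 of 125 and the catenin gene Ctnna3 with 15 of 84. In all, 757 of the 5810 coding genes in which a window of this length was centred held a member. Averaged over its members, the chromosome 12 region read 44.2%, 41.9% and 49.2% in G1, against 42.4%, 41.1% and 45.0% in G2/M. The members in Ptprd read 46.5%, 44.4% and 48.6% in G1, against 42.6%, 42.3% and 47.2% in G2/M. Both regions followed the order of the replicates in the members as a whole.

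Over the whole table, the libraries differed more by replicate number than by phase. Replicate 3 was above the mean of replicates 1 and 2 by 7.35 percentage points over all autosomal windows, 7.15 in the comparison windows and 5.59 in the members. The window over the start of the pluripotency gene Nanog had a mean of 13.9% and that over the start of Esrrb 66.7%. The start of Sox2 lay in no window, and that of Pou5f1 in a window of 188569 bp, so they gave no check of the cell type.

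The mean of the members was slightly higher in G1. G1 replicates 1, 2 and 3 read 43.9%, 42.3% and 48.6%, and the G2/M replicates 42.5%, 41.3% and 47.6%. The group means were 45.0% ± 3.28 in G1 and 43.8% ± 3.32 in G2/M (SD, n = 3 each). They lay 1.15 percentage points apart, less than the SD of either group (exact permutation test, two-sided, p = 0.60, where 3 against 3 cannot go below 0.10). Both SDs include the higher level of replicate 3, which the phases shared. Within replicate numbers the differences were 1.41, 0.997 and 1.05 percentage points, above 0 in 3 of 3 pairs (two-sided exact sign-flip test, p = 0.25, the smallest that 3 pairs allow). Without G1 replicate 3 the difference was -0.682, and without G2/M replicate 2 it was -0.0889. Replicate 3, the highest, is then in G2/M alone, or replicate 2, the lowest, in G1 alone.

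**Figure D3:**
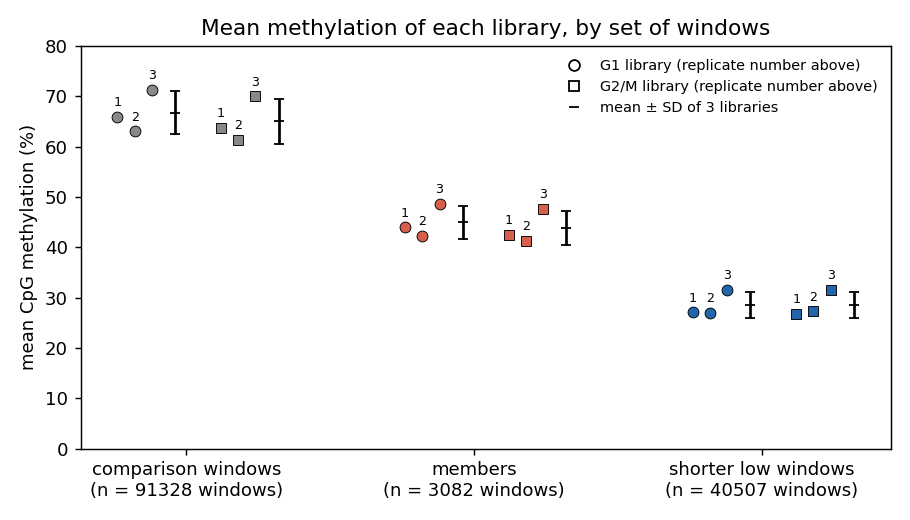
Mean CpG methylation (%) of each library over the comparison windows, the members and the shorter low windows, with the replicate number above each point and the mean ± SD of 3 libraries beside it. Replicate 3 was highest in each phase and set, and G1 and G2/M overlapped in all 3 sets.

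The phase difference of the members lay between those of the comparison windows and of the shorter low windows. It was 1.77 percentage points in the comparison windows, 0.0140 in the shorter windows with a mean under 50% and 0.844 over all autosomal windows. The levels had the same order, with G1 means of 66.8% in the comparison windows, 45.0% in the members and 28.5% in the shorter low windows. Members and shorter low windows differed in both level and CpG density, which cannot be told apart here. The members' difference was smaller than that of the comparison windows in each of the 3 pairs, with contrasts of -0.852, -0.701 and -0.280 percentage points and a mean of -0.611 (exact permutation test, p = 0.60; exact sign-flip test, p = 0.25). It was larger than that of the shorter low windows by 1.15, 1.27 and 1.00 percentage points, a mean of 1.14 (exact permutation test, p = 0.30; exact sign-flip test, p = 0.25). Neither contrast passed 0.05, which 3 pairs cannot reach. With windows chosen on the other replicate numbers, the same contrasts were -0.318 and 1.33 percentage points.

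Among the members, the phase difference was smaller in windows with lower methylation and at gene starts, the latter also in the comparison windows. It was -0.125 percentage points in the members under 30%, 0.593 from 30% to 40%, 1.04 from 40% to 45% and 1.39 from 45% to 50%. The contrast between the highest and the lowest of these classes was 1.51 percentage points, above 0 in 3 of 3 pairs (exact permutation test, p = 0.40). Members with a coding start within 1000 bp differed by 1.14, -0.635 and 0.128 percentage points in the 3 pairs, and those without one by 1.48, 1.37 and 1.27. In the comparison windows it was 1.19 percentage points with a coding start and 1.81 without, a contrast that was not tested. The contrast between members without and with a start, 1.16 percentage points, was above 0 in 3 of 3 pairs (exact permutation test, p = 0.10, the smallest possible; exact sign-flip test, p = 0.25). These splits were chosen after seeing the data, and they overlapped. A coding start lay within 1000 bp of 53.3% of the members under 30% and of 12.3% of those from 45% to 50%. Level and gene start therefore cannot be told apart here. By the number of CpGs in the sequence, the phase difference was 1.12 percentage points in members with 49 to 53 CpGs and 1.19 in those with more than 53, a contrast of 0.0695 (exact permutation test, p = 0.90).

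**Figure D4:**
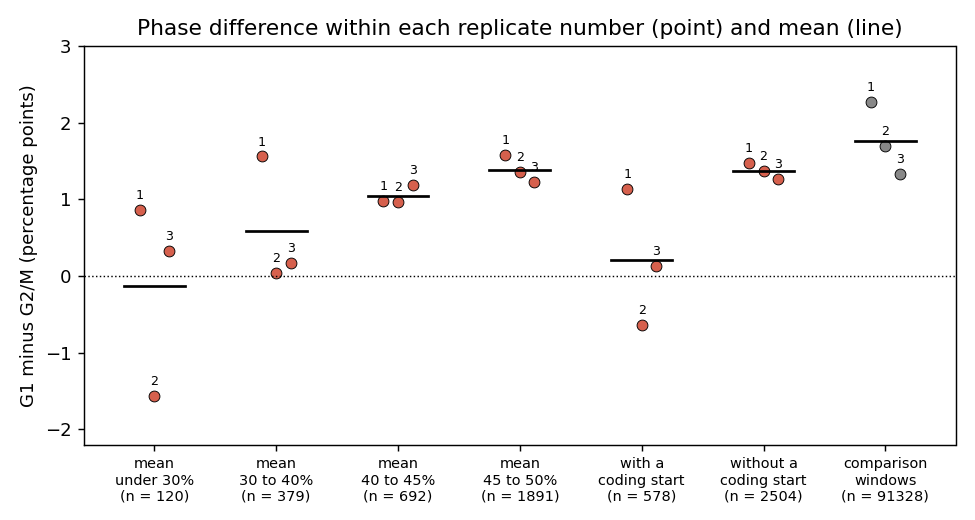
G1 minus G2/M in percentage points within each replicate number (points, numbered) and their mean (line), for members by level, for members with and without a coding start, and for the comparison windows. Members from 40% to 50% and members without a coding start were above 0 in every pair, and the members under 30% and those with a coding start fell on both sides of 0.

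No member passed the test between phases as a single window. With limma and Benjamini-Hochberg adjustment over all 359192 windows, 0 members had an adjusted p under 0.05 (0.00223% of all windows), and the lowest adjusted p was 1. At an unadjusted p under 0.05, 37 members (1.20%) were called, against 2.11% of all windows, 25 of them higher in G1 (0.811% against 1.36%) and 12 higher in G2/M (0.389% against 0.75%). With each library centred on its median the split among members was 25 and 26. With the replicate number as a block 51 members (1.65%) were called, against 4.83% of all windows and 3.18% of the comparison windows. All G1 values exceeded all G2/M values in 190 members (6.16% against 4.12% of all windows) and fell short of them in 64 (2.08% against 1.98%). All 3 pairs were above 0 in 540 members (17.5% against 16.3%) and below 0 in 261 (8.47% against 9.74%). In the comparison windows the shares were 5.16%, 1.1%, 21% and 7.02%, in the same order. In simulated data, 200 members changed by 1, 2 or 4 on the log2 ratio scale gave 0, 0 and 154 calls with an adjusted p under 0.05. At an unadjusted p under 0.05, 136, 194 and 200 were recovered. The simulated noise was independent between libraries, and 5.29% to 5.37% of the unchanged windows were called, against 2.11% of all windows in the data. The recovery in the real libraries may therefore differ.

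The 3 largest differences in favour of G1 among members without overlap were in windows over pseudogenes, each over 100000 bp from the nearest coding start. The window over the pseudogene Gm5733, nearest to Mrgpra3, chr7:47721084-47736221, read 56.6%, 59.7% and 59.9% in G1 against 45.8%, 21.7% and 36.3% in G2/M. The window over Gm7482, nearest to E030018B13Rik, chr7:63801778-63811127, read 52.4%, 57.1% and 71.8% in G1 against 35.0%, 30.0% and 44.2% in G2/M. The window nearest to Gm10330, chr12:22901979-22921375, read 61.5%, 44.4% and 55.4% in G1 against 26.0%, 25% and 41.6% in G2/M. Their group means differed by 24.1, 24.0 and 22.9 percentage points. The smallest limma p in favour of G1, 0.00670 unadjusted, belonged to the window over Mrgpra4, a receptor gene of sensory neurons, chr7:47981331-47995762, with 57.3%, 55.2% and 58.8% in G1 against 36.5%, 40.2% and 35.8% in G2/M. Its libraries were close together within each phase (57.1% ± 1.81 and 37.5% ± 2.37, SD, n = 3), and its adjusted p was 1 by limma. In chr7:47000001-49000000, a stretch chosen after these values were seen, 8 of 40 windows were members.

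In the other direction, the window over Zfp729a, a zinc-finger gene, chr13:67636803-67645923, read 19.4%, 4.55% and 14% in G1 against 42.2%, 47.7% and 31.3% in G2/M. Its difference of -27.8 percentage points had the smallest unadjusted limma p of all members, 0.00237, with an adjusted p of 1. The window inside the antisense transcript A330093E20Rik, nearest to Trim36 on chromosome 18, read 37.8%, 45.1% and 32.1% in G1 against 61.8%, 47.8% and 70.3% in G2/M, and 95.8% of it was soft-masked as repeats. The window inside Memo1, chr17:74276341-74286658, read 40.7%, 36.7% and 41.8% in G1 against 48.6%, 48.4% and 74.7% in G2/M, where G2/M replicate 3 stood apart from the other two. For the windows named by size or rank of their difference, the adjusted limma p was 0.894 to 1 over the alternatives.

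**Figure D5:**
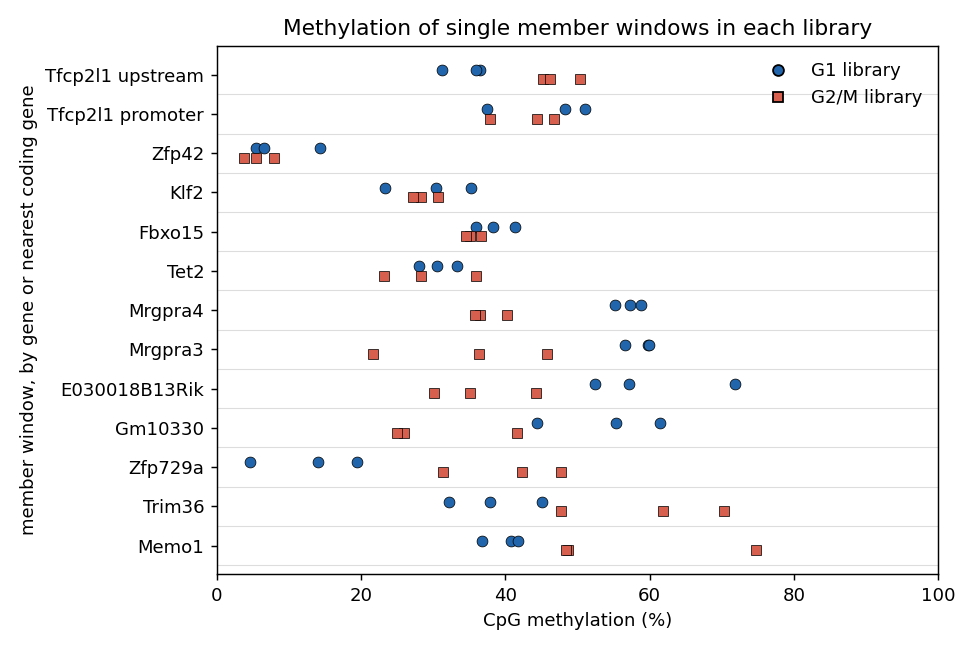
CpG methylation (%) in each G1 library (circles) and G2/M library (squares) of single members, at pluripotency genes and Tet2 (upper 6 rows) and of the members with the largest or best-ranked differences between phases (lower 7 rows). The phases overlapped at Zfp42, Klf2, Fbxo15, Tet2 and the Tfcp2l1 promoter, and stood apart in the upstream Tfcp2l1 window and in the lower 7 rows, which were chosen by the size or rank of that difference.

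The 3 members with the lowest means did not differ between phases beyond their spread. The Wasf2-side window, chr4:133093792-133103775, held 287 CpGs and read 0%, 6.58% and 1.19% in G1 against 3.03%, 4.69% and 1.67% in G2/M. It was the only member listed at 0% in a library. The window at the end of Snx5, a sorting nexin gene, chr2:144260743-144269523, held 52 CpGs and read 8.33%, 2.50% and 1.96% in G1 against 4.85%, 3.51% and 6.67% in G2/M. The Tex21 window, chr12:76221702-76231032, held 165 CpGs, was 81.0% soft-masked as repeats, and read 0.893%, 9.38% and 2.38% in G1 against 8.51%, 8.02% and 3.19% in G2/M. Of the 3, only the Snx5 window had about the number of CpGs that the table counts.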

How the data were processed

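EM-seq libraries were made from 3 G1 and 3 G2/M samples of sorted mESCs, grouped by their labels. The deposited table holds, for each library and 100-CpG window, the percentage of methylated CpG calls as the authors computed it. Per the labels and the paper's methods, reads were trimmed with Trim Galore 0.6.4, aligned to GRCm38/mm10 with Bismark 0.22.1 and Bowtie2, and filtered for duplicates and mapping quality, and a window was kept only with a minimum share of its CpGs observed in every dataset. No normalization between libraries is stated.

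Means over windows were taken per library, and phases were compared by exact permutation (20 labelings, two-sided) and by exact sign-flips of the 3 pairs. For single windows, lmFit and trended eBayes of limma 3.58.1 (R 4.3.3) were fitted to the whole table, as the log2 ratio of percentage to 100 minus percentage with 1 added to each, under Benjamini-Hochberg adjustment (threshold 0.05). This fit was tested on simulated data. Gene models came from GENCODE vM21 and sequence from RefSeq GRCm38, in which 99.4% of the windows of 8000 to 20000 bp started at a CpG. A promoter ran from 1000 bp before to 100 bp after the start of any annotated transcript, coding or not. Python 3.11.15, pandas 2.3.3, scipy 1.17.1 and matplotlib 3.10.9 were used.

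Windows were named by rule: the 3 lowest members, the 3 largest differences in each direction among members whose phases did not overlap and whose pairs had 1 sign, the smallest p in each direction, the 2 windows on each side of the threshold, the 3 longest runs (ties settled by the lowest mean), the 2 lowest members with no gene within 50000 bp, and up to 3 lowest members within 5000 bp of genes of each list. Other named items were chosen after their values were seen. The members and lists were chosen with earlier results of these data known. Differentially methylated regions and replication timing were not used here.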

Additional observations from a re-analysis of the deposited data

How the results depend on the processing

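The phase difference of the members, 1.15 percentage points, ran from -0.682 (without G1 replicate 3) to 3.04 when each library was left out, and was -0.0889 without G2/M replicate 2. It was 0.118 with libraries centred on their medians, 0.420 with members under 40%, 0.663 at 8000 to 12000 bp, and -0.125 in members under 30%, a split added after seeing the data. The contrast with the comparison windows ran from -1.22 to -0.0178 over the left-out libraries, and that with the shorter low windows from 0.542 to 1.68. Members with an unadjusted limma p under 0.05 numbered 18 to 43 over the left-out libraries and 40 to 53 under the other alternatives, the 18 without G2/M replicate 1, beside 23 when replicate 2 of G2/M was left out, and members with an adjusted p under 0.05 numbered 0 to 0. The 18 were 0.584% of the members, against 1.49% of all windows. The 43, without G1 replicate 3, were 1.4% against 3.04%, and the 53, on the percent scale, 1.72% against 2.21%. In every setting the share of members was below that of all windows. In the main fit it was 1.20%, against 1.05% of the comparison windows. Of the unadjusted calls among members, 67.6% were higher in G1, 49% after centring, and 39.1% to 89.2% over the left-out libraries. In the main fit, 4873 of the 7566 calls over all windows were higher in G1. The share of members centred in a promoter, 2.50%, was 3.41% under 40% and 18.75% when any coding start within 1000 bp of the window counted. The share with 10 or more CpGs in 500 bp, 44.5%, was 60.9% under 40%, 55.1% at 8000 to 12000 bp (31.9% of the comparison windows) and 68.3% with 8 or more CpGs. The cause of these changes was not tested.

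Blocking on the replicate number, the difference was 1.15 percentage points (exact sign-flip test, p = 0.25), and the contrasts were -0.611 and 1.14. With this block, 51 members had an unadjusted limma p under 0.05 and 0 an adjusted one. The 51 were 1.65%, against 4.83% of all windows and 3.18% of the comparison windows. Across members, G1 and G2/M libraries of equal number deviated from their phase means with correlations of 0.0140 to 0.0517, against -0.0582 to 0.0193 for unequal numbers. Over all windows these were 0.0274 to 0.0549 and -0.0299 to -0.00144. Equal numbers were thus closer over all windows, but all values were small. Correlations across windows do not measure a shift common to all windows of a library, such as the higher level of replicate 3 in both phases. They therefore do not decide between an unpaired and a paired test. The unpaired test, whose spread includes that shift, is given beside the sign-flip test of pairs. The unknown depth and the 3 libraries per phase limit every single-window value.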
